A study of Mus musculus with 42 samples.

Results

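The transcripts of 10 partners of ISY1 in the Prp19 complex of the spliceosome were followed through the differentiation of mouse embryonic stem cells (ESCs): Cdc5l, Prpf19, Plrg1, Bcas2, Ctnnbl1, Xab2, Crnkl1, Syf2, Aqr and Ppie. They were taken by gene name from both polyA RNA sequencing tables of the study. Each name matched 1 line per table, so they were 10 of 16345 genes in the table of epiblast-like cells (EpiLCs) and 10 of 16753 genes in the table of embryoid bodies (EBs). Isy1 itself is given beside them and is not counted among the 10.

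The Prp19 complex enters the spliceosome as it is activated and stays there through both steps of splicing. Its core holds the ubiquitin ligase PRPF19, the MYB-related protein CDC5L, the WD-repeat protein PLRG1 and BCAS2, and CTNNBL1 binds CDC5L. Around that core the repeat proteins XAB2 and CRNKL1 form a scaffold next to SYF2, and in human cells ISY1 also sits with the helicase-like AQR, XAB2 and the cyclophilin PPIE in a group that contacts the intron. In ESCs ISY1 has in addition been linked to the maturation of a subset of microRNAs, the process in which DGCR8 takes part.

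The libraries came from 2 lines. KH2-ISY1 cells carry a Flag-tagged ISY1 that doxycycline (Dox) switches on, and the other line is a DGCR8 knockout, whose parent line and clone the labels do not give. The groups used here were KH2-ISY1 EpiLCs with Dox (24, 48, 72 and 96 h in EpiLC medium), the knockout, for which no Dox treatment is entered (0 h in 2i/LIF, then 6, 24, 48, 72 and 96 h of EpiLC medium) and KH2-ISY1 without Dox (0 h in 2i/LIF, then 6, 12, 18, 24, 30, 36, 48, 72 and 96 h). There were also cells put back from EpiLC medium into 2i/LIF (cESCs) after 24 or 48 h with Dox or without Dox, with no Dox during the return. In the EB table, serum/LIF cells with Dox stood beside serum/LIF cells without Dox, which open a course without Dox that runs through days 1, 2, 4, 8, 10 and 13 of EB formation. All KH2-ISY1 groups carry the inducible copy, the labels do not say from which species its ISY1 comes, and reads of that copy and of the endogenous Isy1 gene cannot be told apart. Each condition and time had 1 library, so single values carry no replicate error and the tests below measure spread around a mean over hours or around a smooth course.

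Libraries held 8.82 to 56.02 M reads in the EB table. In that of EpiLCs, 16 libraries held 5.80 to 11.77 M reads, and the other 8, among them 5 of the knockout, could only be estimated, at 11.68 to 38.84 M reads. Values are read counts per gene divided by 1 factor per library, here called normalised reads, and they are not corrected for gene length, so levels of different genes are not ranked. Each of the 10 partners was measured well above the floor: each value rested on at least 213 reads, so counting error alone was at most 6.85%. Dgcr8 stood between 36.8 and 44.5 normalised reads in the 6 knockout libraries and between 59.6 and 231 in the other 18 of the EpiLC table. Markers of naive ESCs (Klf4, Esrrb, Tbx3, Zfp42, Nr5a2 and Tfcp2l1) summed to 24968 at 0 h and 466 at 96 h in KH2-ISY1 cells without Dox, while formative markers (Fgf5, Pou3f1, Otx2, Dnmt3b and Sox3) summed to 260.0 and 2855. In the cESC library from 24 h EpiLCs without Dox, the lowest of the cESCs, the naive markers summed to 8141, against 11803 to 19629 in the other 3. A rescaling by median ratios moved that library by 0.20 on the log2 scale, against shifts between −0.12 and 0.08 in the rest of the EpiLC table, so it stands apart.

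Promoter sequence is shown for 4 partners on which the results below turn: Cdc5l and Prpf19, core subunits whose levels parted on both courses, and Plrg1 and Xab2, which differed in opposite directions in the knockout. The lines give the 150 bases before the annotated start, 5′ to 3′ on the gene's strand, from RefSeq on GRCm38.p6. Of the 10 partners 9 had an entry, and Ppie had none. Prpf19 had 2, of which the first is shown and used in the counts below, and the other, at chr19:10898495-10898644, has no match in its 150 bases. The first 2 stretches lie at chr17:45433708-45433857 (minus strand) and chr19:10895081-10895230 (plus strand), and the next 2 at chr3:83055388-83055537 (plus strand) and chr8:3621297-3621446 (minus strand). Capitals mark matches to any of the 6 motifs searched.
Cdc5l: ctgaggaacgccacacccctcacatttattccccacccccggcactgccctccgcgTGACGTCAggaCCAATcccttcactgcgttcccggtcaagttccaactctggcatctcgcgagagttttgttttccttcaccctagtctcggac
Prpf19: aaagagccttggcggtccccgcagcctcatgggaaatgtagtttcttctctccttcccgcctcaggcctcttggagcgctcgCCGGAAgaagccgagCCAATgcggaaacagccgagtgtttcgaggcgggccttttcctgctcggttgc
Plrg1: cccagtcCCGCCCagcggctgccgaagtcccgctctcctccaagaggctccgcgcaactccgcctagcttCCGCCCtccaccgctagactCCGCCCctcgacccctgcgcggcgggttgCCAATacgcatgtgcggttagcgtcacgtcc
Xab2: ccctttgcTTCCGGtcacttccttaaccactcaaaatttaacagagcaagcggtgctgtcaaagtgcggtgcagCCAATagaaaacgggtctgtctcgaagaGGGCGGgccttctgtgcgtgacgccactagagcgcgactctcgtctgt

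The motifs, searched on both strands in the 250 bases before the start, were the CCAAT box (CCAAT), the ETS core (CCGGAA), the 10-base palindromic NRF1 motif, the SP1 box (GGGCGG), the CRE (TGACGTCA) and the E-box (CACGTG). None of the marked matches overlaps another. CCAAT was in 5 of the 9 partners' windows (Cdc5l, Prpf19, Plrg1, Xab2 and Aqr), against 34.5% of 27025 gene windows of that length. CCGGAA was also in 5 (Prpf19, Xab2, Crnkl1, Syf2 and Aqr), against 12.2% of windows, and GGGCGG in 5, against 32.9%. TGACGTCA was in those of Cdc5l and Xab2, against 1.62% of windows, CACGTG was in that of Bcas2, against 6.05%, and the NRF1 motif was in 0 of 9, against 0.781%. These matches describe the letters in the window and do not show that a factor binds there.

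The course without Dox asks how the complex is expressed as naive cells become EpiLCs, and the partners did not move as a unit. Cdc5l fell to 0.382 of its starting level at 96 h, Aqr rose to 1.55 times it, and most others stayed within a narrow range. A course was called where its shape over the hours passed an adjusted p of 0.05, and was counted as higher or lower by its fitted ends. Of the 10 partners 1 was called higher (Aqr) and 2 lower (Cdc5l and Syf2), against a background of 50.1% of the 16206 genes tested (25.4% higher, 24.8% lower). The median change of the 10 was −0.14 on the log2 scale and that of all genes tested −0.02.

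Cdc5l, the MYB-related core protein, had 2787, 1935, 2384, 2038, 1581, 1361, 1427, 936, 1286 and 1065 normalised reads from 0 to 96 h in order of hour. The 2i/LIF library was the highest and the 48 h library the lowest, and each library from 24 h on was below each earlier one. The fitted change was −1.23 ± 0.26 (SE) on the log2 scale (limma adjusted p = 0.00132), and it passed without any one library and under each other setting tried. Within libraries of like depth, Cdc5l changed by −1.57 from the first to the last of the 3 libraries of 0, 24 and 48 h. It changed by −0.44 over the 5 from 6 to 36 h with near 9 M reads, and by −0.27 between 72 and 96 h. No other partner fell as far from 0 to 48 h, but Plrg1 fell further from 6 to 36 h (−0.65) and Prpf19 from 72 to 96 h (−0.33). These are differences of single libraries, and the part of depth was not tested. The naive marker sum fell along the same hours, and its part in the result was not tested. In such bulk libraries fewer cells of a type and less RNA per cell cannot be told apart.

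Prpf19, the ubiquitin ligase of the core, ran differently, with 744, 729, 961, 970, 1243, 964, 974.6, 685, 843 and 672 normalised reads over the same hours. It was highest at 24 h and was back near its starting level at 48 h and 96 h. The ends were alike and the course missed the threshold (log2 −0.05 ± 0.28 between the ends, limma adjusted p = 0.140). It passed without the 0 h library (adjusted p = 0.0281) and without the 48 h library (adjusted p = 0.0356), in a range of 0.0281 to 0.333 over all settings.

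Within each library, the Cdc5l value was 3.75 times the Prpf19 value at 0 h, 2.65 at 6 h, 2.48 at 12 h, 2.10 at 18 h and 1.27 at 24 h, and it lay between 1.37 and 1.59 from 30 to 96 h (1.41 at 30 h). This ratio does not depend on how libraries are scaled, and since it is not corrected for gene length only its change between libraries is read. Cdc5l had the largest fall of the 10 partners on both courses in these same values, and Prpf19 was called on neither. The fall of the ratio, here and in EBs, is therefore a description and no further evidence. In cESCs it was 3.81 and 4.23 after 24 and 48 h EpiLCs with Dox, and 3.22 and 3.40 after those without Dox, near the level of 2i/LIF cells. In the knockout it was 4.59 at 0 h, 5.39 at 6 h, 3.40 at 24 h and between 1.80 and 2.01 from 48 to 96 h.

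**Figure D1:**
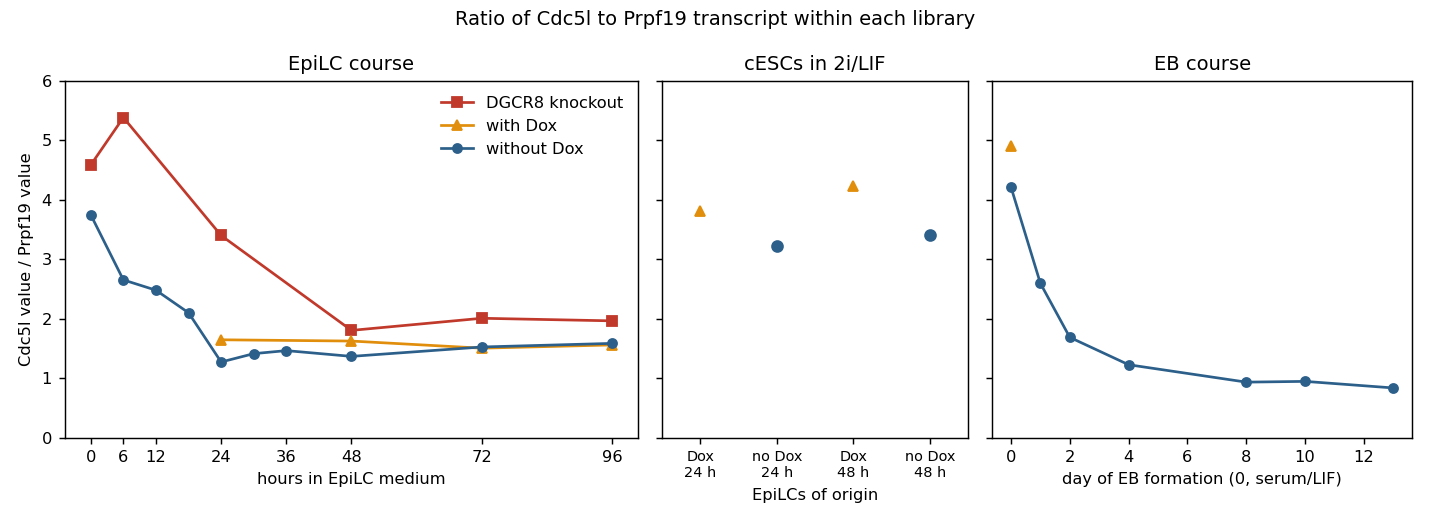
Ratio of the Cdc5l value to the Prpf19 value in each library (vertical axis, no unit), by hours in EpiLC medium, by EpiLCs of origin for the cESCs, and by day of EB formation. Each point is 1 library. The ratio is between 3.22 and 5.39 in every 2i/LIF and serum/LIF library and in the knockout at 6 h and 24 h, and at most 1.69 in KH2-ISY1 cells from 24 h of EpiLC medium or day 2 of EB formation on.

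Aqr, the intron-binding helicase-like protein, had 612, 712.5, 699, 709, 758, 921, 772, 989, 974 and 951 normalised reads in order of hour. The 3 libraries from 48 h on were the highest. The fitted rise was 0.63 ± 0.18 (SE; limma adjusted p = 0.0117, range over the settings 0.00668 to 0.0433). Among the libraries of 0, 24 and 48 h Aqr rose by 0.69, and from 6 to 36 h by 0.11, while between 72 and 96 h it changed by −0.035.

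Syf2, a small partner of the scaffold, had 263, 420, 364, 340, 303, 305, 323, 238, 258 and 259 normalised reads. It peaked at 6 h and its ends were alike (log2 −0.06 ± 0.22), so its call (limma adjusted p = 0.0257) is one of shape. The call ended without the 6 h library (adjusted p = 0.0574) and without the 12 h library (adjusted p = 0.0821). It also ended without the trend (0.0560), with untransformed hours (0.151) and with a stiffer spline (0.152), in a range of 0.0127 to 0.152 for the limma adjusted p. The WD-repeat protein transcript Plrg1 was also highest at 6 h, at 443, and lay between 244 and 316 in the other 9 libraries (log2 −0.33 ± 0.23, adjusted p = 0.0624); it passed without the 0 h library (adjusted p = 0.0164, range 0.0164 to 0.156). In the knockout both were again highest at 6 h, Plrg1 at 498 and Syf2 at 325, and so was Cdc5l, at 2770. The 6 h value against the mean of 0 h and 24 h was ranked among 15736 genes. In the knockout Plrg1 stood at percentile 78.6 and Syf2 at 67.5, and in KH2-ISY1 without Dox at 82.8 and 84.7, so such a rise was not particular to them.

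Bcas2, the small core subunit, had a median of 242 normalised reads, from 209 at 96 h to 313 at 12 h, and missed the threshold (log2 −0.52 ± 0.19, limma adjusted p = 0.0533); it passed after TMM rescaling (adjusted p = 0.0436) and with a stiffer spline (adjusted p = 0.0367, range 0.0367 to 0.163). Xab2, the scaffold protein, ranged from 370 to 542.5 with a median of 429.7 (log2 −0.22 ± 0.24, adjusted p = 0.353) and passed without the 6 h library (adjusted p = 0.0475, range 0.0475 to 0.637). The other scaffold protein, Crnkl1, ranged from 422 to 624 (adjusted p = 0.149), and CDC5L-binding Ctnnbl1 from 390.5 to 579 (log2 0.42 ± 0.19, adjusted p = 0.101). Ppie, the cyclophilin, ranged from 241 to 330 (adjusted p = 0.301).

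Spread over the 10 libraries was small for most of the partners. The SD of log2 values was 0.15 for Ppie, 0.17 for Ctnnbl1 and 0.18 for Crnkl1, and 0.50 for Cdc5l, the highest. Among the 7948 genes with a mean of at least 100 normalised reads, the median SD was 0.29, and 9 of the 10 partners were below it. Isy1, the induced subunit, had 267 normalised reads at 0 h and 359 to 557.5 in the later libraries without Dox.

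**Figure D2:**
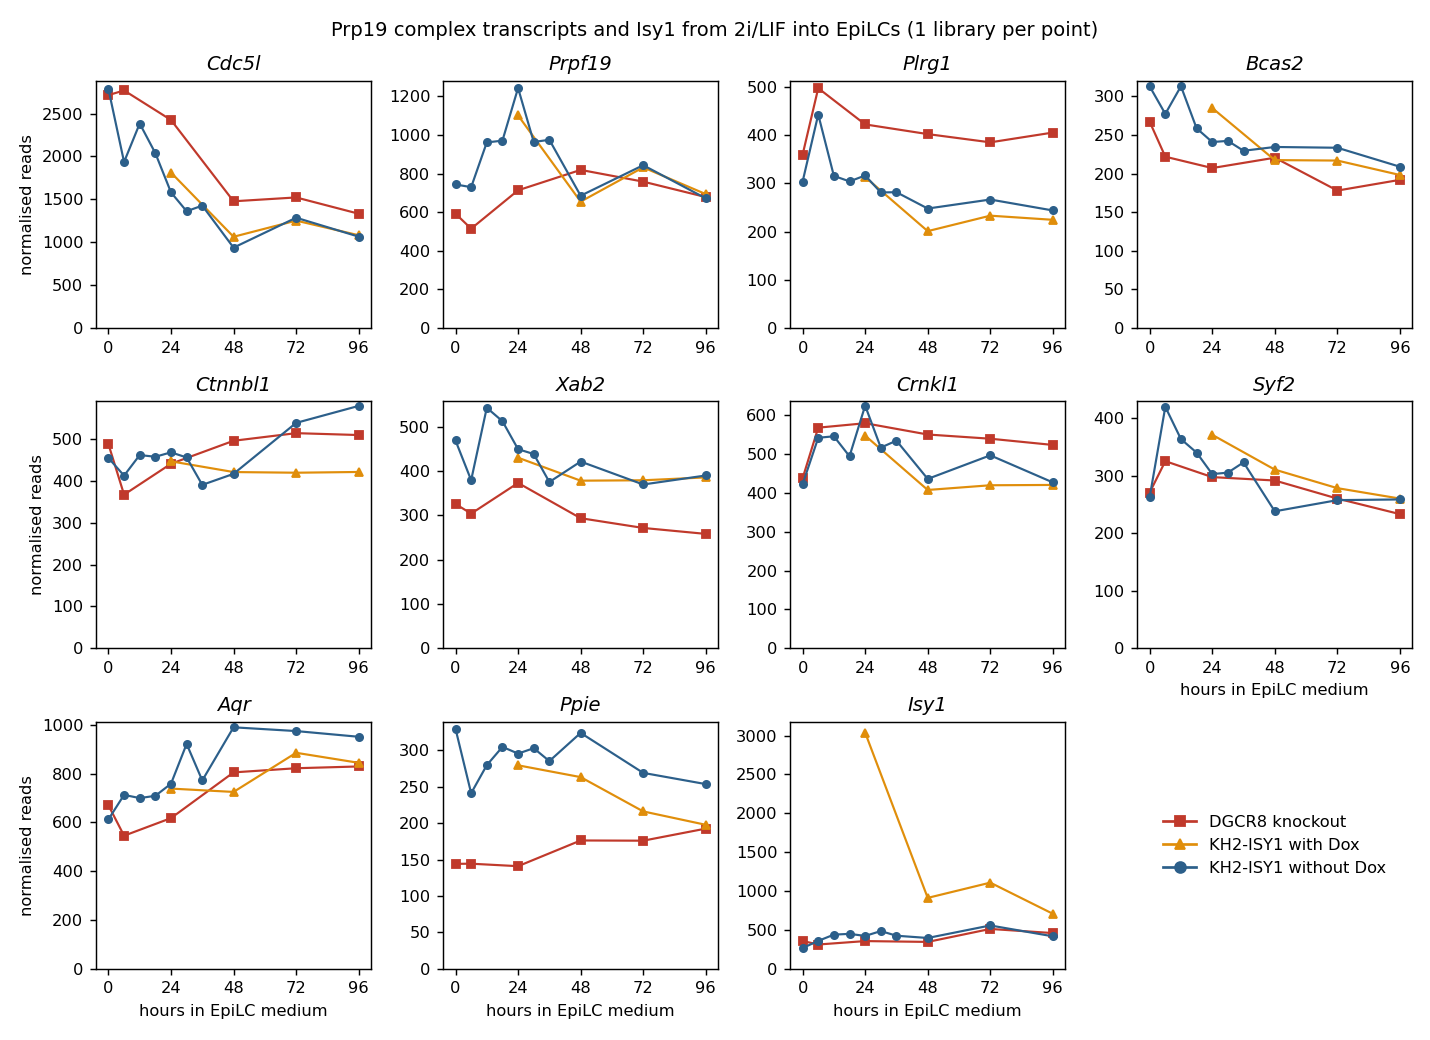
Normalised reads (vertical axis, from 0) of the 10 partners and Isy1 by hours in EpiLC medium, for the DGCR8 knockout, KH2-ISY1 with Dox and KH2-ISY1 without Dox. Each point is 1 library. Ppie in the knockout lies between 140.9 and 192.5, below each KH2-ISY1 library, while with Dox only Isy1 stands clear of the libraries without Dox at all 4 hours. How many other genes separate in this way was not counted.

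Dox asks whether inducing a single subunit is accompanied by changes in its partners. None of the 10 partners was called, but 2.83% of all genes tested were, so a count of 0 among 10 is near that share. The same fit did not call Isy1 itself, so the count says little about the partners. Isy1 stood at 3038, 912, 1109 and 708 normalised reads with Dox at 24, 48, 72 and 96 h, against 423, 396.5, 557.5 and 418 without Dox. Relative to the mean log2 value of the 10 partners in the same library, Isy1 was 2.55, 1.17, 1.38 and 0.83 higher with Dox, against −0.29, −0.12, 0.27 and −0.04 without Dox. Over the 4 pairs its log2 difference was 1.45 ± 0.31 (SE; limma adjusted p = 0.0542), and without the 24 h pair it was 0.98 (adjusted p = 0.0184, range 0.0184 to 0.467).

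Of the 10 partners 0 were called with Dox, against a background of 2.83% of 16117 genes tested (1.78% higher, 1.05% lower). EdgeR on the 24 and 48 h pairs also called 0. At an unadjusted p under 0.05 limma had 1 partner, Ppie, and 3682 of the 16117 genes. The median log2 difference of the 10 was −0.10 and that of all genes tested −0.01. The largest was in Ppie, which had 279, 263, 216 and 198 normalised reads with Dox, against 295.5, 324, 269 and 254 without Dox at 24, 48, 72 and 96 h. It was lower in 4 of 4 pairs, by 5.45% to 22.0%, though the groups overlap (log2 −0.26 ± 0.09, limma adjusted p = 0.156, 95% interval −0.56 to 0.04). The 95% intervals given for Dox use the 3 residual degrees of freedom alone. They are wider than the empirical Bayes test behind the p values implies, so an interval that holds 0 can stand beside an unadjusted p under 0.05.

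Aqr was lower with Dox in 4 of 4 pairs, at 738, 725, 885 and 844 normalised reads against 758, 989, 974 and 951 without Dox (log2 −0.20 ± 0.09, limma adjusted p = 0.230). Syf2 was the partner highest with Dox relative to without, at 371, 310.5, 278 and 260.2 against 303, 238, 257.5 and 259 (log2 0.20 ± 0.10, adjusted p = 0.279). Plrg1 and Crnkl1 were lower in 4 of 4 pairs, by at most 18.9% and 15.5%, and Ctnnbl1 in 3 of 4, by 27.2% at 96 h. For Cdc5l the difference was 0.09 ± 0.07, for Prpf19 −0.05 ± 0.07, for Xab2 −0.05 ± 0.08 and for Bcas2 −0.01 ± 0.10, with 95% intervals that together span −0.34 to 0.33. A mean difference of 1.5-fold over the 4 pairs lies outside the interval of each of the 10, with Ppie the nearest to it. The intervals do not bound the difference at any single hour.

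The naive marker sum was 10112, 5784, 3608 and 2259 with Dox against 7471, 2088, 834 and 466 without Dox, so the cells of the pairs also differed in state; its part in these differences was not tested. The change of the Dox difference with hour was called for 0 of 10 partners (background 2.84% of genes, with 1.72% higher and 1.11% lower). Before adjustment it was also 0 partners, where 2752 of 16117 genes had an unadjusted p under 0.05. For Isy1 the change was −0.41 per square root of hour (limma adjusted p = 0.0190) and −0.15 without the 24 h pair (adjusted p = 0.207, range 4.86e-09 to 0.207).

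In serum/LIF, with 1 library per group and no test, Isy1 was 5096 normalised reads with Dox and 328 without Dox, 15.5-fold higher. Of the 10 partners 0 differed by more than 1.5-fold, where 22.7% of all genes did (5.52% higher, 17.1% lower). That share covers all genes with a mean of at least 1, also those resting on few reads. Each partner rested on at least 870 reads here, so the share is not a like background. The genes of the further lists below, Isy1 aside, also stayed within 1.5-fold, so this was not particular to the partners. Cdc5l was 3217 with Dox and 2506 without Dox (1.28-fold), the largest difference among them. Ppie was 207 with Dox and 254 without Dox, the lowest ratio among the 10 (0.815-fold). The median log2 difference of the 10 was 0.06 and that of all genes −0.04.

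After return to 2i/LIF, Isy1 was 331 and 235 normalised reads in cESCs from 24 and 48 h EpiLCs with Dox, against 221 and 324.5 in cESCs from those without Dox, so the 2 groups overlap. Of the 10 partners 0 were called by limma on 2 pairs, with 1 residual degree of freedom (background 0.00632%), and 0 by edgeR. At an unadjusted p under 0.05 limma had 0 partners and 278 of 15823 genes. In the 24 h pair all 10 partners were higher after Dox, with a median of 0.41 on the log2 scale and 0.17 over all genes. Of all genes 9418 were higher and 6275 lower in that pair. In the 48 h pair 7 of 10 partners were higher, with a median of 0.12 and 0.00 over all genes, of which 7745 were higher and 7820 lower. Cdc5l was 2791 and 2282 after Dox, against 1348 and 2052 after no Dox. The 24 h pair rests on the library that stands apart. For the partners the SE of the log2 difference was 0.38 to 0.41. Only 1 of 15823 genes was called at all, so the count of 0 says little about the partners with or without that library.

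The knockout comparison asks how the complex is expressed where microRNA processing is lost, with line and knockout not to be told apart. Cdc5l and Plrg1 were higher and Xab2 and Ppie lower in the knockout, so 2 of 10 partners were called higher and 2 lower, against a background of 42.4% of 16267 genes called (18.1% higher, 24.3% lower). The genes called were 2941 higher and 3958 lower as deposited, and 3554 higher and 3135 lower after median-ratio rescaling. The median log2 difference of the 10 was −0.12 and that of all genes −0.08. The libraries without Dox at 24 to 96 h also serve in the Dox comparison above.

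Ppie had 144, 144, 141, 176, 176 and 192.5 normalised reads in the knockout at 0, 6, 24, 48, 72 and 96 h, against 330, 241, 295.5, 324, 269 and 254 in KH2-ISY1 without Dox. Each knockout library was below each KH2-ISY1 library. In this comparison 42.4% of all genes were called, and how many other genes separate as fully was not counted. The log2 difference was −0.81 ± 0.12 (SE, 6 pairs; limma adjusted p = 0.00101, range over the settings 0.000961 to 0.00460). It was already present in 2i/LIF (−1.19 at 0 h) and was least at 96 h (−0.40), but the change with hour was not called (adjusted p = 0.372).

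Plrg1 had 359, 498, 422, 402, 385 and 405.5 normalised reads in the knockout, against 303.5, 443, 316, 248, 266.5 and 244 in KH2-ISY1 without Dox. It was higher in 6 of 6 pairs, by 12.4% to 66.3%, with the 6 h library of KH2-ISY1 above most of the knockout. The log2 difference was 0.46 ± 0.10 (limma adjusted p = 0.00644, range 0.00239 to 0.0416). As a ratio within the library, Plrg1 to Ppie was 2.11 to 3.45 in the knockout and 0.765 to 1.84 over the 10 libraries of KH2-ISY1 without Dox. Plrg1 and Ppie are the partners with the largest rise and the largest fall in these same values, and Ppie alone already separates the lines. The ratio is therefore a description and no further evidence.

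Xab2 had 326, 304, 373, 293.5, 271.5 and 258 normalised reads in the knockout, against 469, 379, 449, 421, 369.5 and 390 in KH2-ISY1 without Dox. It was lower in 6 of 6 pairs, and only the 24 h knockout library reached the range of the other line. The log2 difference was −0.44 ± 0.08 (limma adjusted p = 0.00318, range 0.00299 to 0.0146). Cdc5l had 2715, 2770, 2425, 1477, 1522 and 1332 normalised reads in the knockout, against 2787, 1935, 1581, 936, 1286 and 1065 in KH2-ISY1 without Dox. At 0 h the lines were alike, and at the 5 later hours the knockout was higher by 18.4% to 57.8%.

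For Cdc5l the log2 difference was 0.39 ± 0.10 (limma adjusted p = 0.0150), and it missed the threshold when hour was not used as a block (adjusted p = 0.361, range over the settings 0.00637 to 0.361). At 96 h the knockout library had 0.491 of its own 0 h level of Cdc5l, against 0.382 in KH2-ISY1, a difference that was not tested. The naive marker sum was higher in the knockout at each hour, from 32792 against 24968 at 0 h to 1521 against 466 at 96 h, and its part in the Cdc5l difference was not tested.

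The other 6 partners were not called in the knockout. Prpf19 had 592, 514, 713, 819, 758 and 678 normalised reads in the knockout, against 744, 729, 1243, 685, 843 and 672 in KH2-ISY1 (log2 −0.25 ± 0.13, limma adjusted p = 0.152). Bcas2 was lower in 6 of 6 pairs, by 5.93% to 23.8% (adjusted p = 0.0639), and Aqr in 5 of 6 (adjusted p = 0.0741), which passed without the 0 h pair (adjusted p = 0.0252, range 0.0252 to 0.351). Crnkl1 was 0.13 ± 0.09 higher and did not pass (adjusted p = 0.267). Ctnnbl1, Syf2 and Isy1 each differed by −0.03, and the sign of all 3 flipped after either rescaling. The change of the knockout difference with hour was called for 0 of 10 partners (background 0.523%). At an unadjusted p under 0.05 limma had 1 partner, Plrg1, and 2395 of 16267 genes.

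**Figure D3:**
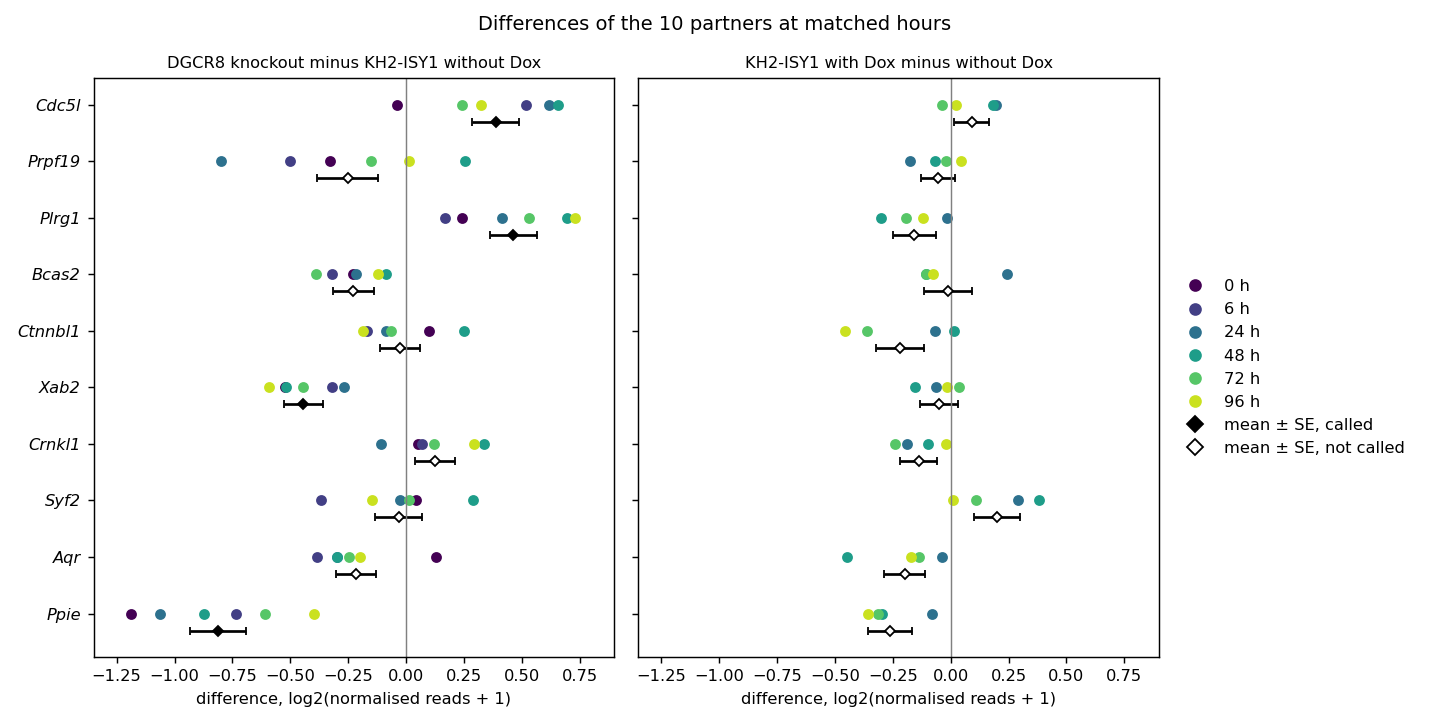
Differences of the 10 partners on the log2 scale (horizontal axis) at matched hours, for the knockout minus KH2-ISY1 without Dox and for KH2-ISY1 with Dox minus without Dox. Circles are single pairs of libraries and diamonds are the mean with its SE, filled where the limma adjusted p is under 0.05. Plrg1 lies right of 0 and Xab2, Bcas2 and Ppie left of 0 in all 6 knockout pairs, and no mean of the Dox panel is filled.

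EB formation is another course out of the ESC state, begun from serum/LIF, and there too Cdc5l fell. It had 2506 normalised reads at day 0, then 2114, 1399, 989, 990.0, 946 and 763 at days 1, 2, 4, 8, 10 and 13. The 13-day library had 0.304 of the level at day 0. The fitted change was −1.74 ± 0.27 (SE; limma adjusted p = 0.00912, range 0.00735 to 0.0406), and it passed without any one library. Of the 10 partners 1 was called, against a background of 26.9% of 16753 genes (17.3% higher, 9.61% lower). At an unadjusted p under 0.05 limma had 5 of the 10 partners and 7033 of the 16753 genes. The median change of the 10 was −0.70 and that of all genes 0.12.

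Prpf19 had 594, 814, 829, 806, 1061, 999 and 913 normalised reads over the same days, lowest at day 0, and missed the threshold (log2 0.68 ± 0.23, limma adjusted p = 0.116). The Cdc5l to Prpf19 ratio went through 4.22, 2.60, 1.69, 1.23, 0.933, 0.946 and 0.836 in order of day. It was 4.91 in serum/LIF cells with Dox.

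Xab2 had 480, 652, 631, 354, 271, 342 and 283 normalised reads, high to day 2 and low from day 4 on (log2 −1.10 ± 0.37, limma adjusted p = 0.0958), and it passed without the day 0 library (adjusted p = 0.0152, range 0.0152 to 0.206). Bcas2 had 273, 367, 354, 226, 264, 195 and 175 (log2 −0.77 ± 0.31, adjusted p = 0.107) and passed without the day 4 library (adjusted p = 0.0311, range 0.0311 to 0.354). Aqr had 990, 694, 760.4, 731, 613, 654 and 487, so its 13-day level was 0.492 of day 0 (adjusted p = 0.102), where its 96 h level in EpiLC medium was 1.55 times that of 0 h; the 2 tables were scaled separately and the difference between courses was not tested.

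Plrg1, Crnkl1 and Syf2 were each highest at day 1 and missed the threshold, at adjusted p of 0.222, 0.192 and 0.858. Ctnnbl1 had the smallest spread of the 10 in EBs, from 507 to 654, with an SD of 0.12 on the log2 scale. Among the 8586 genes with a mean of at least 100 normalised reads in EBs, the median SD was 0.41, and 8 of the 10 partners were below it. Ppie ranged from 171 to 254 and Isy1 from 286 to 474. Markers of other cells moved over the same days. The naive sum was 13549 at day 0 and 591 at day 4, while 8 germ layer markers summed to 82.5 at day 0 and 1566 at day 4, and 5 primitive endoderm markers to 117 at day 0 and 1176 at day 8. At day 13 the 4 measured fibroblast markers (Col1a1, Col1a2, Col3a1 and Thy1) summed to 12002, against 21.4 to 328 at the other days without Dox. The part of these cells in the Cdc5l fall and in the other values was not tested, and Cdc5l passed without that library.

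**Figure D4:**
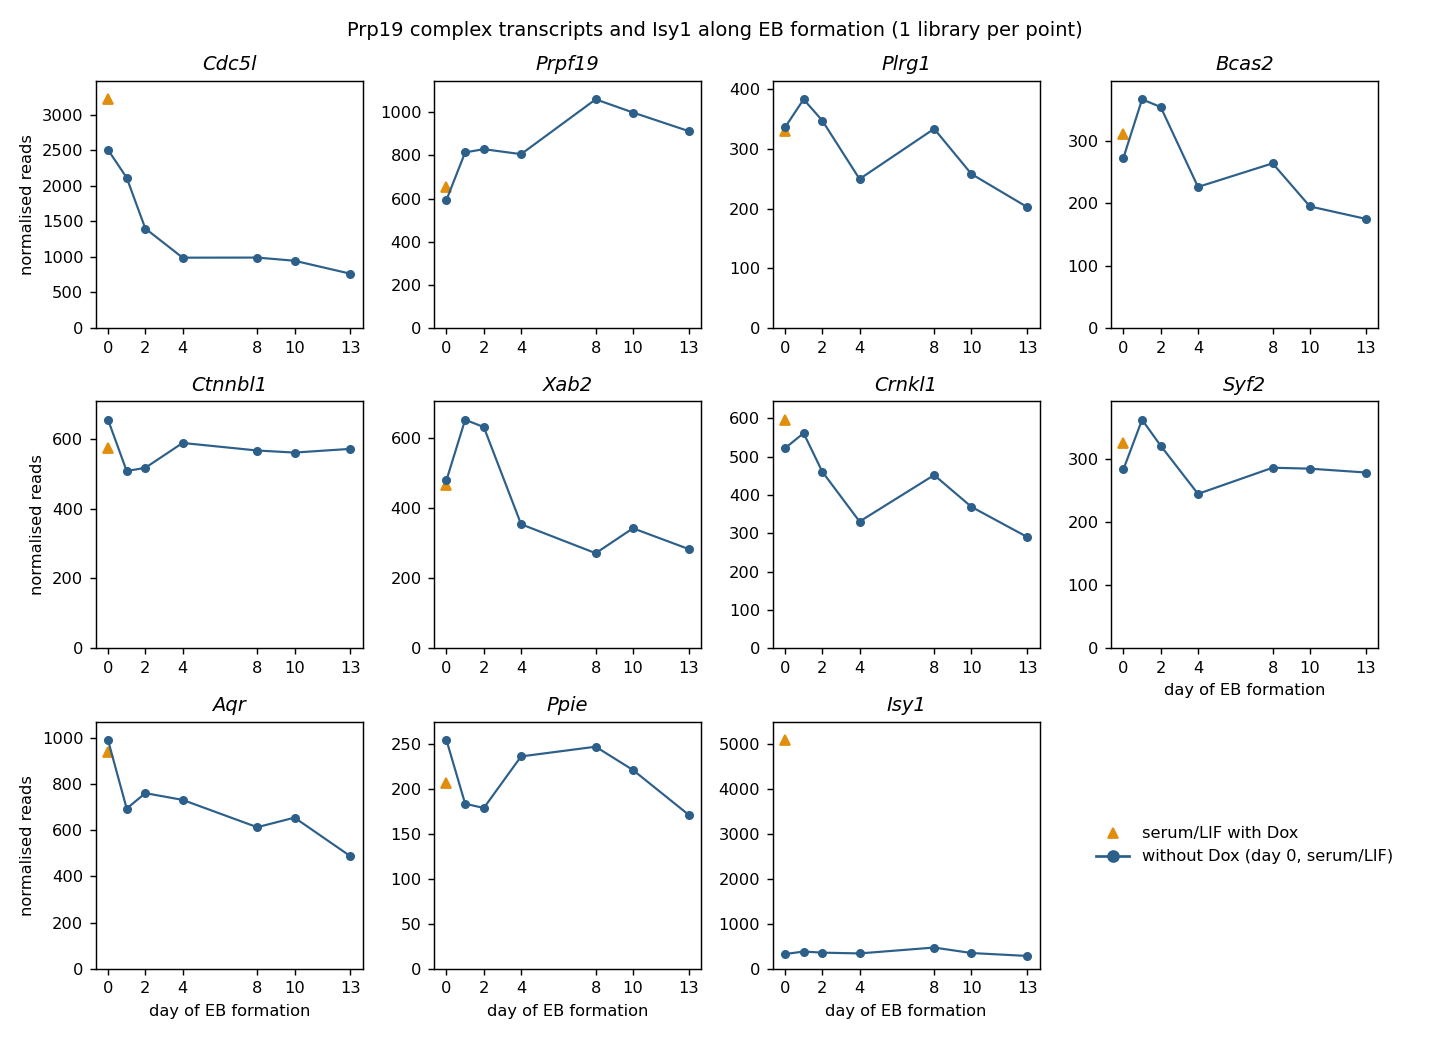
Normalised reads (vertical axis, from 0) of the 10 partners and Isy1 by day of EB formation without Dox, with the serum/LIF library with Dox at day 0. Each point is 1 library. Cdc5l falls from day 0 through day 4 and stays at or below 990.0 after that, and with Dox Isy1 alone stands far from the library without Dox.

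Other spliceosome genes give the setting, read against the 42.4% of all genes called in the knockout (18.1% higher, 24.3% lower). Of 13 other Prp19 and Prp19-related genes, Isy1 among them, 2 rose and 5 fell in the knockout: Bud31 (log2 −0.65), Ccdc12 (−0.52), Ppil1 (−0.48) and Cdc40, the second-step factor (−0.45), were the largest, and Wbp11 and Snw1 rose by 0.37 and 0.26. Of 9 late-step ATPases and second-step factors 1 rose in the knockout, Gpkow, by 1.43, and 0 fell. Of 12 U5 and tri-snRNP genes Sart1 rose (0.39), and Snrnp40 (−0.59) and Txnl4a (−0.44) fell. Of 5 Microprocessor genes Dgcr8 was the one called (−1.48).

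On the EpiLC course, where 50.1% of all genes were called (25.4% higher, 24.8% lower), of the 13 other Prp19 genes Isy1 was the one called (0.79, limma adjusted p = 0.0255), and it missed the threshold without the 0 h library (0.31, adjusted p = 0.559, range 0.0137 to 0.559). Of the 9 late-step genes 4 were called higher, Dhx38 (1.14), Yju2 (1.14), Cactin (0.94) and Dhx8 (0.80), and 2 lower, Gpkow (−0.64) and Dhx16 (−0.44). Of the 12 tri-snRNP genes Txnl4a (0.98) and Sart1 (0.59) were called higher. Of the 5 Microprocessor genes Srrt was called higher (0.55) and Ddx17 lower (−0.27). The calls on this course are of shape, with direction taken from the fitted ends. The end differences were 0.55 ± 0.54 (SE) for Srrt, −0.27 ± 0.16 for Ddx17 and −0.44 ± 0.22 for Dhx16. They were −0.64 ± 0.27 for Gpkow and 0.59 ± 0.25 for Sart1. The confidence interval of the end difference held 0 for these genes, so their direction is not settled. It did not hold 0 for Dhx38, Yju2, Cactin, Dhx8, Txnl4a and Isy1. On the EB course, where 26.9% of all genes were called, 1 gene of these 4 lists was, the helicase Dhx16 (−1.63), and with Dox 0 were, where 2.83% of all genes were. The median Dox difference was −0.02 for the other Prp19 genes, −0.11 for the late-step genes, −0.17 for the tri-snRNP genes and 0.03 for the Microprocessor genes.

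Over the 24 libraries of the EpiLC table, the 5 genes whose centred log2 profile was nearest to the mean profile of the 10 partners were Psmd4, Hnrnpf, Gm7803, Ddost and Eif5b, with root mean square differences of 0.09 to 0.11, among 13891 genes. Of the partners, Bcas2 (0.14), Ctnnbl1 (0.18) and Syf2 (0.20) were nearest to the mean profile they share in, and Cdc5l (0.43) and Ppie (0.34) the farthest. For Cdc5l, 46.8% of the candidate genes were nearer. In RefSeq a tRNA gene and a microRNA gene lie within Aqr and no other gene overlaps a partner; neither has a line in the EpiLC table.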

How the data were processed

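PolyA RNA of 32 libraries was used here, and 10 small RNA libraries were not analysed. The deposited values are of the unit signal: gene read counts that the authors divided by 1 factor per library, as worked out from the values, since low values are whole multiples of 1 step (0.0952 to 0.935 units per read). Whole reads were recovered in 24 libraries, where all low values came within 0.1 reads of a whole number. Bowtie and the builds GRCm38 and mm9 are named without roles per the submitters' processing notes; the gene counter, the annotation and the strand setting are not given in the sources used here. RNA was extracted with Trizol and libraries made with a stranded kit, per the labels' protocols. The EpiLC table has 1 line without a gene name, left out (at most 0.00589% of a library), and 20 names turned into dates, against 22 in the EB table; these stayed in the tests unnamed.

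Values were analysed as log2(value + 1) for genes with a mean of at least 1, so that fold changes of low genes are understated. Limma 3.58.1 (empirical Bayes with trend, R 4.3.3) gave two-sided p values, adjusted by Benjamini-Hochberg over all genes of each fit at a threshold of 0.05. Dox (4 pairs) and the knockout (6 pairs) were fitted with hour as a block, and the courses as natural splines of the square root of time with 3 (EpiLC) or 2 (EB) degrees of freedom, direction being the last fitted value minus the first. Alternatives were other pseudocounts, filters, scalings, splines and time scales, no trend, no block, edgeR 4.0.16 on recovered reads, and each library or pair left out. The steps were tested on simulated data. The 10 partners, the gene lists and the tests were chosen with earlier results of these data known. Named were all 10 partners and Isy1, up to 4 called genes with the largest change per further list and comparison, and the 5 genes nearest in profile.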

Additional observations from a re-analysis of the deposited data

Results flagged for a closer look

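For Isy1 the Dox difference changed with hour: its slope was −0.41 on the log2 scale per square root of hour (limma adjusted p = 0.0190 over 4 pairs). The differences were higher with Dox in 4 of 4 pairs. The slope was −0.15 without the 24 h pair (adjusted p = 0.207), and over all settings the adjusted p ranged from 4.86e-09 to 0.207, so the change rests on the 24 h pair. None of the 10 partners passed this test for Dox or for the knockout, and no other value met a criterion for a closer look.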

How the results depend on the processing

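The count of partners called stayed within 1.5 times the reported count in 103 of the 106 recomputations of a count. The exceptions are among the leave-one-out counts: 2 to 5 partners were called on the EpiLC course (5 without 0 h) and 1 to 2 on the EB course (2 without 0 d or without 4 d). For Dox, the cESCs, both changes with hour and serum/LIF the reported count was 0. A recomputed 0 there was taken as unchanged, also where few genes were called at all, so it says little about robustness. Of single genes, 33 values reversed sign, none of them a called one. After edgeR, Bcas2 with Dox was 0.049, Prpf19 on the EpiLC course 0.13 and Isy1 on the EB course −0.12. In the knockout, median-ratio and TMM rescaling gave 0.066 and 0.065 for Ctnnbl1, 0.059 and 0.058 for Syf2, and 0.057 and 0.056 for Isy1; on the EB course they gave −0.11 and −0.12 for Isy1. With untransformed time, Prpf19 was 0.047 and Crnkl1 −0.0089 on the EpiLC course, and Isy1 −0.13 and Ctnnbl1 0.0013 on the EB course. A spline with 2 degrees of freedom gave −0.058 for Crnkl1. Leave-one-out values with a reversal ran from −0.10 to 0.020 for Bcas2 with Dox; in the knockout from −0.081 to 0.0059 for Ctnnbl1, −0.10 to 0.035 for Syf2 and −0.13 to 0.0081 for Isy1; on the EpiLC course from −0.27 to 0.17 for Crnkl1, −0.39 to 0.042 for Ppie and −0.13 to 0.11 for Prpf19; on the EB course from −0.15 to 0.15 for Ctnnbl1, −0.19 to 0.24 for Isy1 and −0.27 to 0.082 for Ppie. The causes were not tested. All-gene calls with Dox fell to 0 without the 48 h or 72 h pair, without the trend or without the block, against 456 as reported; they were 66 without the 96 h pair, 1122 without the 24 h pair and 109 by edgeR. In the knockout 3487 genes were called without the block, against 6899. EdgeR was not run for the knockout, where reads were recovered in 1 pair only, and for Dox it used 2 of the 4 pairs. Pairing by replicate number could not be fitted, since each condition and time has 1 library; the pairs were matched by hour, which served as the block.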
